A study of Homo sapiens with 12 samples.

Results

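Cytochrome c oxidase, complex IV of the respiratory chain, is the enzyme that cyanide blocks, and the transcripts of its nuclear genes were compared between HepG2 cells with less or more of TST, an enzyme that detoxifies cyanide. HepG2 is a human hepatocellular carcinoma line. The genes were chosen by name, 40 of the 57500 genes counted: 15 subunits of the enzyme, 23 factors needed to assemble it, and 2 partners, COX7A2L and CYCS. The 3 groups of 4 replicate samples were unmodified cells (WT), cells with an shRNA against TST (shTST) and cells overexpressing TST (overTST), and all 12 had the same normal medium with 0.4 mM glycine for 24 h. Both engineered lines came from lentiviral transduction, and the study's methods describe Blasticidin selection of the transduced cells. The overexpressed TST was codon optimized and driven by a CMV promoter. No control line carrying an empty vector is named for this comparison in the sources used here, so the effects of transduction and selection cannot be told apart from those of TST in either line. The labels do not say whether the replicates were separate cultures or single clones, so p-values measure the spread between these samples, which may be technical. The study's statistics section defines independent experiments in general as done on different days, as biological replicates, but does not tie this to the RNA-seq libraries.

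Complex IV takes electrons from cytochrome c and passes them to oxygen while it pumps protons across the inner mitochondrial membrane. Its catalytic core, with heme a and copper centres, is made of subunits encoded by mitochondrial DNA, and the smaller nuclear-encoded subunits surround this core and help to stabilize and regulate it. Several nuclear subunits come as pairs of isoforms, a ubiquitous or liver form and a form of heart, muscle, lung or testis. Assembly starts from MT-CO1 and needs dedicated factors that make heme A, carry copper, stabilize and translate mitochondrial mRNAs, and hold partly built modules together.

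The picture was one of small differences that mostly went in 1 direction. All 11 subunits that could be tested were higher in overTST than in WT, by 0.21 to 0.47 on the log2 scale, whereas 10 of the 23 assembly factors were higher and 1, LRPPRC, was lower, in a comparison that called 33.9% of all genes (15.7% higher, 18.2% lower). In shTST 2 of 11 subunits (18.2%) and 3 of 23 assembly factors (13%) were higher than in WT and none was lower, which is near the 16.1% of all genes called there. Shorter transcripts as a whole were higher in the overTST libraries. With this trend removed, by 1 or the other measure of length, 7 or 4 subunits were called, among them COX7B, which differed most and has a principal transcript of 2471 bases.

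The WT libraries held 28866175 to 45120508 counts, the shTST libraries 27527854 to 33865386 and the overTST libraries 22911380 to 27414142, and mitochondrially encoded genes took 6.91% to 12%, 6.84% to 8.65% and 10.8% to 11.7% of them. TST itself had 47.2, 47.5, 52.8 and 48.5 CPM (counts scaled to the size of the library) in the 4 WT libraries, 32.99, 33.6, 36.6 and 33.5 in shTST and 51.8, 56.04, 61.6 and 62.1 in overTST. The shTST libraries lay below all others, with a log2 fold change of −0.52 (SE 0.055, adjusted p = 3.2e-06), and the overTST and WT libraries overlapped (0.24, SE 0.062, adjusted p = 0.00384), where counts at the endogenous gene need not include the codon-optimized transgene. With the trends on transcript length described below removed, TST was not called in overTST, at 0.097 (adjusted p = 0.201) and 0.15 (adjusted p = 0.0507). All 8 hepatocyte markers examined were present in every library, with ALB at 5127 to 8342 CPM, and they summed to 23340 to 26323 CPM in WT, 24523 to 28759 in shTST and 21604 to 26106 in overTST. Single markers were called in both directions. In shTST ALB (0.39), AFP (0.49) and TF (0.41) were higher and TTR (−0.33) and APOB (−0.19) lower, and in overTST APOA1 (0.24) and TTR (0.16) were higher and APOB (−0.55) and HNF4A (−0.15) lower, all as log2 against WT. The 6 markers of other cells summed to 3.63 to 4.00 CPM in WT, 3.75 to 4.67 in shTST and 5.41 to 6.32 in overTST. Among them PTPRC was at 0 in 11 libraries and DCN in 10, while CKM was called higher in both lines (0.68 in shTST and 0.75 in overTST) and PECAM1 in overTST (0.60). The part of these markers in the results below was not tested. In bulk RNA, a change per cell and a change in the share of cells that express a gene cannot be told apart.

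A gene was called where the adjusted p of edgeR's quasi-likelihood test was at most 0.05, with adjustment over all genes tested. Levels are CPM scaled by TMM over the 12 libraries, while each fold change comes from the fit of its own comparison. Of the 40 genes, 36 passed the filter on low counts in every comparison, and each of these had at least 245 reads in every library. The other 4 were COX4I2, COX6A2, COX6B2 and COX7A1, the tissue-restricted isoforms of subunits 4, 6A, 6B and 7A. COX4I2 had 1 read in all 12 libraries together and COX6A2 had 0, where a count of 0 allows up to 0.0665 to 0.131 CPM in a library. COX6B2 had 8 reads in 4 libraries, and COX7A1 had 26 reads in 11. Their ubiquitous or liver counterparts were all well covered, with at least 9135 reads per library for COX4I1, 3492 for COX6A1, 3610 for COX6B1 and 1268 for COX7A2. No switch towards the restricted isoforms was detectable at this depth in any group.

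Subunit transcripts were unequal in level in WT. Per kilobase of exonic length COX8A was highest, with 146 ± 18.1 CPM per kb (SD, n = 4), and COX6B1 (129 ± 10.2) and COX6A1 (92.8 ± 9.71) followed. COX8A and COX6B1 overlapped between libraries, while COX6B1 and COX6A1 did not. COX5A (71.7 ± 5.50), COX4I1 (70.3 ± 5.29) and COX5B (69.4 ± 4.49), which overlapped, came next, and COX7B was lowest at 6.21 ± 0.481. Of the 23 assembly factors, COA3 was highest at 50.5 ± 3.36 CPM per kb and CMC1 lowest at 1.38 ± 0.105. In the order of all 36 genes, 20 of the 35 neighbouring pairs overlapped. The length used changes this order, since the exons in the files can be far longer than the main transcript. Per kilobase of the principal transcript, COX4I1, the largest nuclear subunit, came first at 386 CPM per kb, with COX6A1 at 218 and COX6B1 at 181.

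In shTST the subunits differed little from WT. COX6C and COX7B, small subunits with parts in the inner membrane, were higher, 2 of 11 tested (18.2%), beside 16.1% of all 14584 genes tested that were called. In the higher direction alone 6.69% of all genes were called and in the lower direction 9.4%. Under upper-quartile scaling this split of all genes moved from 975 higher and 1371 lower to 1284 and 1151. The 11 subunits had positive fold changes throughout, with a median of 0.12 beside 0.0040 for all genes, but 9 of them did not pass the test (6 of the 11 had an unadjusted p under 0.05). Groups that did not overlap were seen for 3 of the 11 subunits and for 19.1% of all genes.

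COX6C had 20.6, 19.5, 23.4 and 22.97 CPM in WT and 28.5, 24.8, 25.2 and 25.6 in shTST. Every shTST library lay above every WT library, and the log2 fold change was 0.27 (SE 0.069, adjusted p = 0.00926). COX7B had 19.2, 16.8, 20.2 and 19.01 CPM in WT and 25.3, 21.7, 20.8 and 21.4 in shTST, again without overlap, with the first shTST library highest (0.25, SE 0.074, adjusted p = 0.0237). Its call was lost without that library (0.19, adjusted p = 0.104) and without WT replicate 2 (0.19, adjusted p = 0.0769). The WT libraries bear on the whole group: WT replicate 2 was the lowest of the 12 libraries for the median subunit (−0.15 from the WT mean, log2) and WT replicate 3 the highest WT library (0.12). Without WT replicate 3, 7 of the 11 subunits were called higher, and without WT replicate 2 or shTST replicate 1, 1 was. Over all genes, 2336 of 14884, 1934 of 14773 and 1513 of 14862 were called in these fits, in that order, beside 2346 with every library. COX8A, the ubiquitous form of subunit 8, was closest to no difference, at 0.0055 (SE 0.064, adjusted p = 0.966).

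Of the 23 assembly factors, 3 were higher in shTST and none was lower, 13% beside the same background of 16.1%, and the median was 0.049 (5 of the 23 had an unadjusted p under 0.05). COA5, a factor of early assembly whose function is little known, had 18.8, 16.2, 18.7 and 17.3 CPM in WT and 22.04, 21.3, 21.3 and 19.9 in shTST. The groups were apart, and the log2 fold change was 0.26 (SE 0.067, adjusted p = 0.0116). PET100, a small inner-membrane factor, had 16.5, 13.6, 18.1 and 14.8 CPM in WT and 19.97, 18.3, 18.8 and 18.4 in shTST, which came close without overlapping (0.27, SE 0.079, adjusted p = 0.0237). Its call was lost without WT replicate 2 (adjusted p = 0.0828), WT replicate 4 (0.0662) or shTST replicate 1 (0.0746). COX19, a copper-binding factor of the intermembrane space, had 9.41, 10.1, 10.1 and 9.14 CPM in WT and 11.6, 10.7, 10.9 and 12.5 in shTST. These groups were also apart, but the test was at the threshold (0.24, SE 0.081, adjusted p = 0.0495), and the call was lost when any 1 of 6 libraries was left out (adjusted p up to 0.158, without shTST replicate 4). Without WT replicate 4 or shTST replicate 1, 1 assembly factor was called in place of 3. Over all genes, 1740 of 14780 and 1513 of 14862 were called in these fits. Of the 7 copper factors COX19 alone was called, and none of the 2 heme A enzymes, the 5 factors of the early MT-CO1 module or the 2 factors of MT-CO2 insertion was.

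In overTST the subunits stood higher as a group. All 11 tested were called higher and none lower (100%), beside 33.9% of all 14421 genes called, 15.7% higher and 18.2% lower. The median log2 fold change was 0.28 for the subunits and 0.0019 for all genes. In 8 of the 11 every overTST library lay above every WT library, while 30.4% of all genes had groups that did not overlap. The sum over subunits was 1000 to 1206 CPM in WT, 1163 to 1218 in shTST and 1249 to 1398 in overTST, so that overTST lay above both other groups. The first overTST library was the lowest of its group in this sum.

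**Figure D1:**
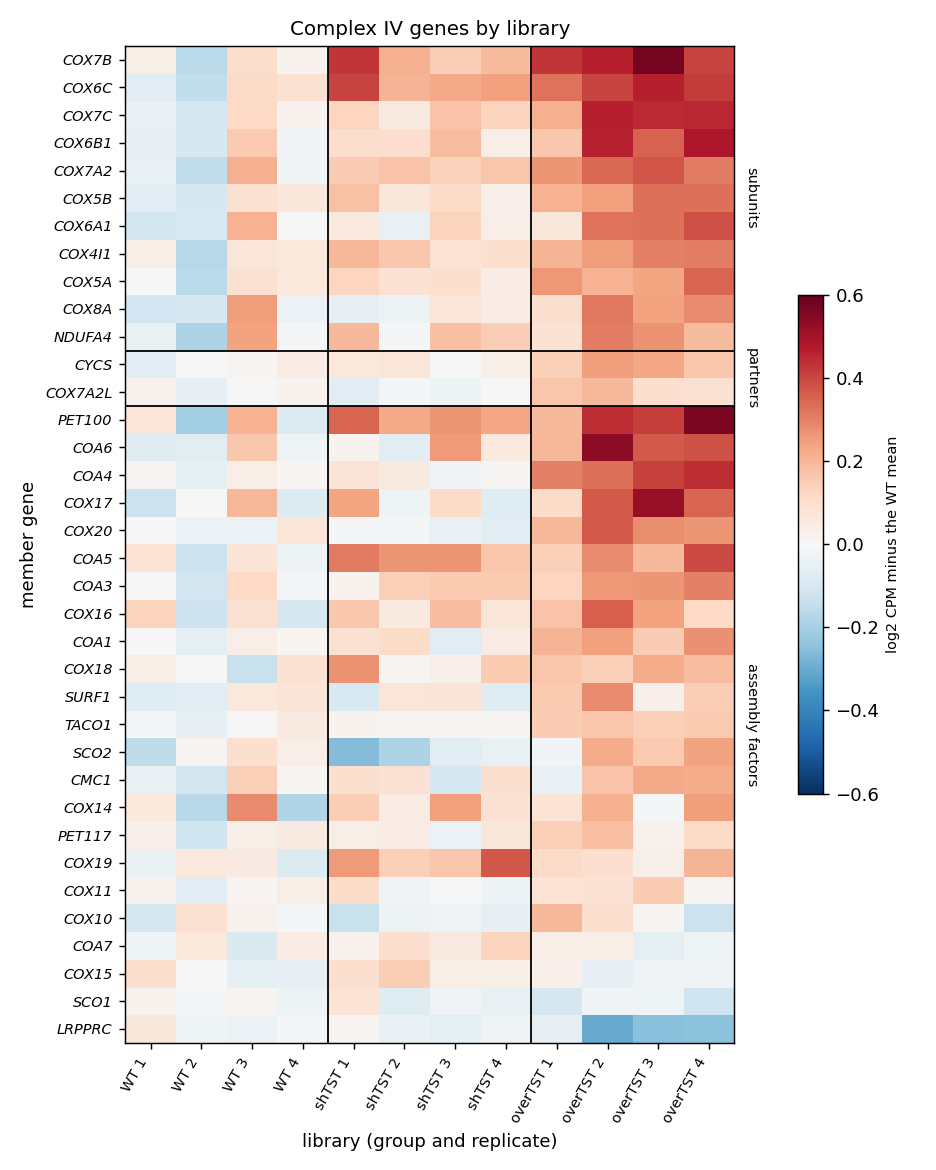
Each of the 36 tested genes (rows, grouped by role and ordered by the overTST difference) in each of the 12 libraries (columns), as log2 CPM minus the mean of the 4 WT libraries. In the 4 overTST columns all subunit rows are positive, WT replicate 2 is negative for all of them, and LRPPRC at the bottom is the row most below WT in overTST.

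COX7B, which sits in the membrane part of the enzyme, differed most. It had 25.3, 25.97, 27.9 and 24.9 CPM in overTST, all above the WT range of 16.8 to 20.2, with a log2 fold change of 0.47 (SE 0.072, adjusted p = 2.47e-05). COX7C had 80.5, 76.9, 89.95 and 83.9 CPM in WT and 95.8, 114, 113 and 113 in overTST. The first overTST library was apart from the other 3 and still above every WT library (0.40, SE 0.06, adjusted p = 2.1e-05). COX6C had 27.02, 28.5, 29.8 and 28.8 CPM in overTST, above its WT range of 19.5 to 23.4, at 0.40 (SE 0.071, adjusted p = 0.000109).

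COX6B1, the ubiquitous form of a subunit that faces the intermembrane space near the cytochrome c site, had 117, 113, 135 and 119 CPM in WT and 135, 166, 154 and 169 in overTST. The lowest overTST library (134.7) was just above the highest WT library (134.6), and the log2 fold change was 0.37 (SE 0.064, adjusted p = 9.78e-05). COX7A2, the liver form of subunit 7A, had 45.1, 41.9, 53.9 and 45.9 CPM in WT and 55.9, 59.1, 60.3 and 57.6 in overTST, apart by a small margin set by WT replicate 3 (0.32, SE 0.065, adjusted p = 0.000467). COX5B, a zinc-binding subunit on the matrix side, had 95.7, 93.4, 107 and 105 CPM in WT and 116, 119, 126 and 126 in overTST, without overlap (0.28, SE 0.053, adjusted p = 0.000281).

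The 2 largest nuclear subunits, COX4I1 and COX5A, which enter the enzyme early around MT-CO1, showed similar differences. COX4I1 had 344, 299, 353 and 351 CPM in WT, 386, 376, 356 and 359.8 in shTST and 388, 400.0, 414 and 415 in overTST. All 3 groups were apart, with shTST between the others, and the difference of overTST from WT was 0.26 (SE 0.054, adjusted p = 0.000523). COX5A had 101, 90.3, 108 and 106 CPM in WT and 121, 117, 119 and 129 in overTST, without overlap (0.26, SE 0.056, adjusted p = 0.000848). The groups overlapped in the remaining 3 subunits, which also passed the test. These were COX6A1, the liver form of subunit 6A (0.28, SE 0.067, adjusted p = 0.00237), COX8A (0.23, SE 0.068, adjusted p = 0.0102) and NDUFA4, a subunit first assigned to complex I (0.21, SE 0.069, adjusted p = 0.0212). The call of NDUFA4 was lost without WT replicate 1, WT replicate 2, overTST replicate 2 or overTST replicate 3, with an adjusted p of 0.0607 to 0.0935, which made 10 of 11 called. For all 3, WT replicate 3 was the library that reached into the overTST range.

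**Figure D2:**
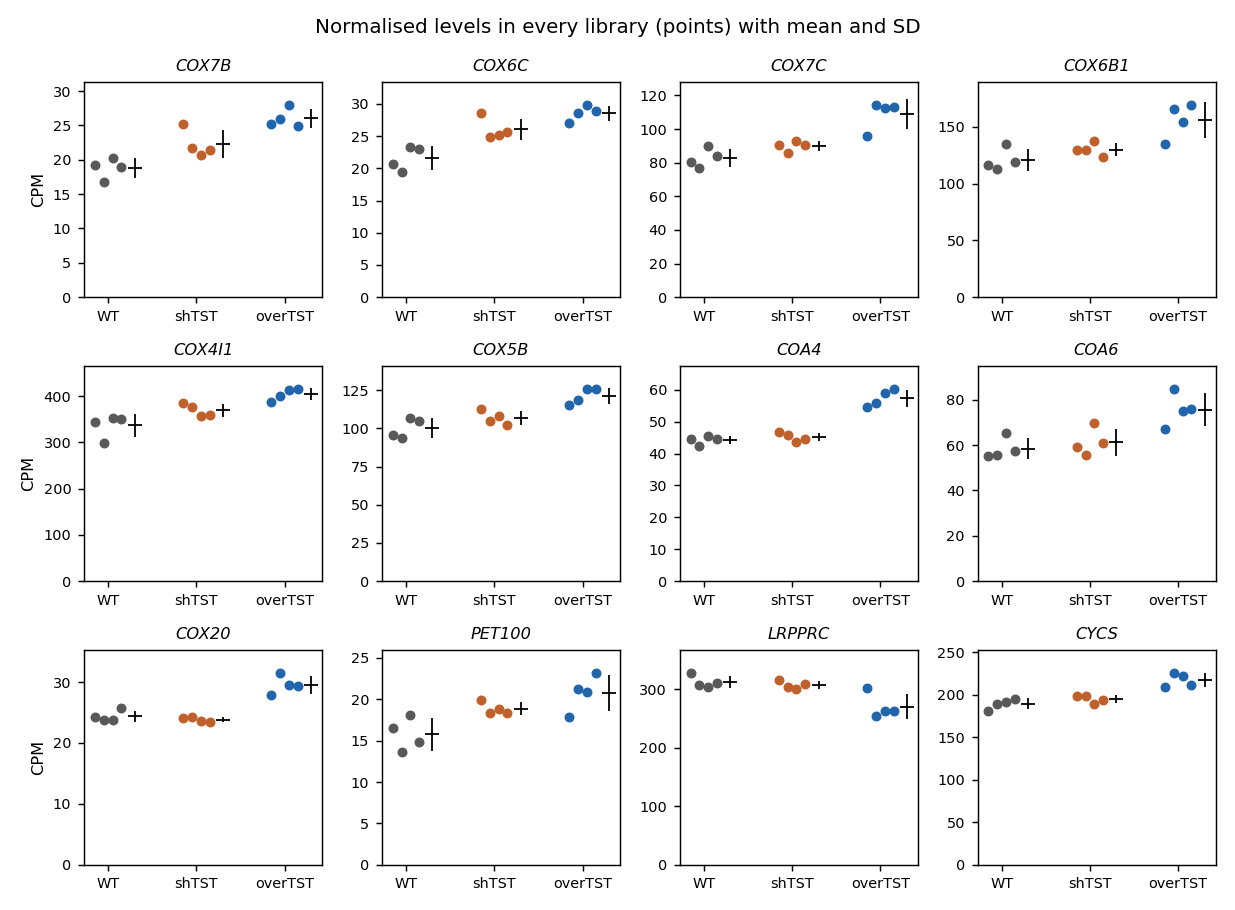
CPM of 12 genes in each library (points) by group, with the group mean and SD (n = 4) beside them and each axis starting at 0. COX7B, COX6C and COA4 show overTST apart from WT, COX20 shows overTST apart from both other groups, and LRPPRC is lower in overTST.

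Promoters are shown for the subunits called in overTST that hold a textbook motif of respiratory genes, and for COX17, the called assembly factor with 2 kinds of motif. Each run covers 250 bases before to 50 after the annotated start, read 5′ to 3′ on the strand of the gene, from RefSeq on GRCh38.p14. Capitals mark matches, on either strand, to GCGCANGCG (NRF1) or CCGGAAGT (the ETS family, which includes GABP). COX6A1 lies at chr12:120437863-120438162 and COX17 at chr3:119677357-119677656, COX5B at chr2:97645812-97646111 and COX8A at chr11:63974370-63974669, with COX17 on the minus strand and the others on the plus strand.
COX5B: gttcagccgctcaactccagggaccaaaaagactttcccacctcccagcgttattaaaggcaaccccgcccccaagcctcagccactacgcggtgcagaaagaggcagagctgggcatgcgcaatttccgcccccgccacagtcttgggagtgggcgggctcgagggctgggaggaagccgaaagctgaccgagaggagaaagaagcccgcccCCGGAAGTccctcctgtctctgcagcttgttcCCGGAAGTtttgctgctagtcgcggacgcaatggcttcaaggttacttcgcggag
COX8A: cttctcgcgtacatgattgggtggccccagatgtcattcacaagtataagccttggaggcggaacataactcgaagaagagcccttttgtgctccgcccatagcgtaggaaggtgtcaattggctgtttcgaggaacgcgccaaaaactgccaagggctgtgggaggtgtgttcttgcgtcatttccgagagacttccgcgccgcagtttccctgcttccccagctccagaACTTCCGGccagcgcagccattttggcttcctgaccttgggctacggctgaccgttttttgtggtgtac
COX6A1: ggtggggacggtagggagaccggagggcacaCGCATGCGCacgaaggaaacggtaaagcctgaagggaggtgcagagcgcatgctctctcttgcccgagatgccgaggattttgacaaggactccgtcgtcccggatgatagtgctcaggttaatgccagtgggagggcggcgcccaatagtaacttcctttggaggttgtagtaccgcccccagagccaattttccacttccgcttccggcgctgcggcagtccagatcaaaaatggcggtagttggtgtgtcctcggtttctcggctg
COX17: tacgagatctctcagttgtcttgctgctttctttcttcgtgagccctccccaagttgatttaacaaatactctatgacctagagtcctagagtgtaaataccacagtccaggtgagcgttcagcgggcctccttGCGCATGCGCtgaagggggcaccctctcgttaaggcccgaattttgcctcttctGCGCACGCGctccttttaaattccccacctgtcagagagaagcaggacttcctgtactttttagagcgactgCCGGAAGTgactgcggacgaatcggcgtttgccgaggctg

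COX5B held 2 ETS matches, beginning at −37 and −5 from the annotated start, and COX8A held 1, at −19. COX6A1 held an NRF1 match at −219. COX17 held 1 ETS match, at 11 after its start, and 3 NRF1 matches, at −116, −115 and −62, of which the first 2 overlap on opposite strands. Another annotated promoter of COX17, at chr3:119676954-119677253, held no NRF1 or ETS match. In the counts that follow, a gene with several promoters had a match if any of them did. An NRF1 match was present in the promoters of 9.02% of 27305 RefSeq genes and an ETS match in those of 4.95%. Of the 9 subunits called higher in overTST with a promoter in the table, 1 had an NRF1 match, 2 an ETS match and 0 a match to AAGATGGC (YY1, 3.52% of all genes). GGGCGG (Sp1) was found in 6 of these 9 and in 48.3% of all genes. Of the 21 assembly factors with a promoter, 7 had an ETS match and 4 an NRF1 match, and of the 10 called higher in overTST these were 4 and 1. COX5B, COX6A1, COX8A and COX17, shown above, lost their overTST calls with both length corrections described below. COX7B, COX7C and COX6B1, still called with both, held no NRF1, ETS or YY1 match, and COX6C, also still called, had no promoter in the table. Any link between motifs and levels was not tested.

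The assembly factors were mixed in overTST. Of 23 tested, 10 were called higher and 1 lower (47.8% beside 33.9% of all genes), and the median was 0.15. By role, 3 of the 7 copper factors (COX16, COX17, COA6) were higher, as were 2 of 5 factors of the early MT-CO1 module (COA1, COA3), 1 of 2 factors of MT-CO2 insertion (COX20), TACO1 and, among factors of other roles, COA4, COA5 and PET100. Neither heme A enzyme was called, with COX10 at 0.05 (SE 0.078, adjusted p = 0.662) and COX15 at −0.016 (SE 0.056, adjusted p = 0.855). Nor was either copper chaperone of MT-CO2, SCO1 (−0.065, SE 0.054, adjusted p = 0.385) and SCO2 (0.15, SE 0.07, adjusted p = 0.0983). SURF1, a factor mutated in Leigh syndrome, was also not called (0.16, SE 0.07, adjusted p = 0.086). SCO2 was called without overTST replicate 1 (0.20, adjusted p = 0.02), and COX18 without WT replicate 4 (0.21, adjusted p = 0.0451).

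COA4, a twin CX9C protein of the intermembrane space, gave the smallest p of the assembly factors. It had 44.5, 42.5, 45.4 and 44.7 CPM in WT, 46.7, 45.96, 43.8 and 44.4 in shTST and 54.6, 55.7, 58.9 and 60.2 in overTST. All 4 overTST libraries were above all others, and the difference from WT was 0.37 (SE 0.055, adjusted p = 1.59e-05). COA6, which helps to deliver copper to MT-CO2, had 55.4, 55.8, 65.2 and 57.4 CPM in WT and 67.03, 84.7, 75.2 and 75.9 in overTST. The second overTST library was the highest, and the groups were apart (0.37, SE 0.065, adjusted p = 0.000102). COA3, which stabilizes newly made MT-CO1, had 97.1, 89.6, 105 and 96.03 CPM in WT and 106, 116, 117 and 119.6 in overTST (0.24, SE 0.055, adjusted p = 0.00156). Here the groups nearly met.

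COX20, a chaperone of MT-CO2, had 24.3, 23.8, 23.8 and 25.7 CPM in WT, 24.2, 24.2, 23.7 and 23.4 in shTST and 27.9, 31.5, 29.6 and 29.3 in overTST. Its WT and shTST libraries overlapped, and overTST was above both (0.28, SE 0.064, adjusted p = 0.0017 against WT). COA1, which joins the early MT-CO1 intermediate, had 42.2, 40.6, 43.4 and 42.5 CPM in WT and 48.6, 50.1, 46.9 and 51.1 in overTST, without overlap (0.22, SE 0.055, adjusted p = 0.00313). TACO1, the translational activator of MT-CO1, had a narrow spread, with 84.8, 82.4, 85.1 and 88.2 CPM in WT and 94.4, 95.5, 93.9 and 94.8 in overTST (0.15, SE 0.048, adjusted p = 0.0149). The call of TACO1 was lost without the filter on low counts and with both length corrections described below. COA5 was also higher without overlap (0.26, SE 0.076, adjusted p = 0.0112), and its call was lost without overTST replicate 4 (0.21, adjusted p = 0.0564). COX17, which hands copper to the other chaperones, PET100 and COX16 passed the test with groups that overlapped, at 0.34, 0.41 and 0.22. COX16 lost its call without WT replicate 2, WT replicate 4 or overTST replicate 2 (adjusted p of 0.0603, 0.0603 and 0.0794).

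LRPPRC, which keeps mitochondrial mRNAs stable, was the 1 member called lower than WT. It had 328, 307, 304 and 311 CPM in WT, 316, 304, 299 and 308 in shTST and 302, 254, 263 and 263 in overTST. The first overTST library reached 302 and sat just below the lowest WT library, while the other 3 were at 254 to 263, and the difference from WT was −0.21 (SE 0.054, adjusted p = 0.00406). Its transcript is long, with a principal form of 6335 bases, and after removal of the length trend the difference was −0.068 (adjusted p = 0.319).

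Both partners were called higher in overTST, beside 33.9% of all genes called, 15.7% higher and 18.2% lower. CYCS, cytochrome c, had 180.4, 189.6, 192 and 195 CPM in WT, 198, 199, 189 and 194 in shTST and 209, 225, 222 and 211 in overTST. The overTST libraries were above all others, and the difference from WT was 0.20 (SE 0.047, adjusted p = 0.00219). COX7A2L, which ties complex IV to complex III in supercomplexes, had 131, 124, 129 and 131 CPM in WT, 123, 128, 126 and 129 in shTST and 145, 147, 138 and 138 in overTST. It was also apart, at 0.14 (SE 0.048, adjusted p = 0.0259), with the call lost without WT replicate 2 (adjusted p = 0.0697) or overTST replicate 2 (0.0784). Against shTST the values were 0.16 for CYCS and 0.16 for COX7A2L, both called, beside 33% of all genes. Neither was called by edgeR between shTST and WT, and 0 of the 2 had an unadjusted p under 0.05, at 0.043 and −0.025.

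**Figure D3:**
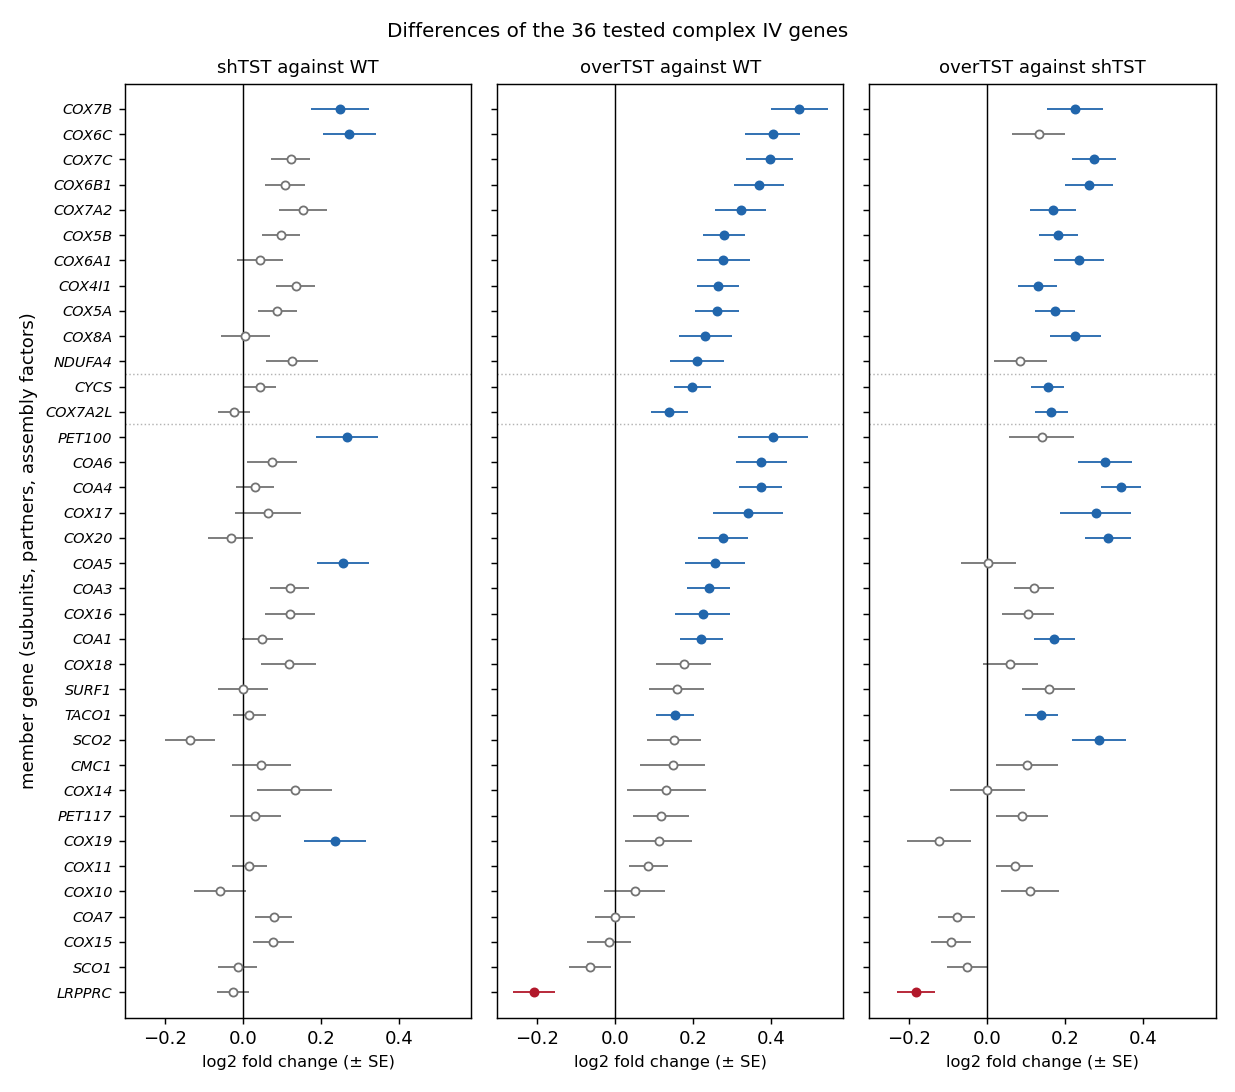
Log2 fold changes (points) with standard errors (bars) of the 36 tested genes in the 3 comparisons, from edgeR, where filled points passed an adjusted p of 0.05 and open points did not. In the middle panel all 11 subunits at the top are filled and positive, while the assembly factors run from PET100 at 0.41 to LRPPRC at −0.21.

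The lines were also compared directly, in a fit of all 12 libraries, with positive values for higher levels in overTST. Subunits were again higher in overTST, 9 of 11 called (81.8%), beside 33% of all 14883 genes, 16.1% higher and 16.9% lower. The median was 0.18 for the subunits and −0.00084 for all genes. The 2 subunits that did not pass were COX6C (0.13, SE 0.068, adjusted p = 0.14), which was called in each line against WT, and NDUFA4 (0.085, SE 0.068, adjusted p = 0.368). Groups did not overlap for 6 of the 11 subunits, beside 29.2% of all genes. The smallest p among the subunits belonged to COX7C, with 90.3, 85.9, 92.96 and 90.8 CPM in shTST below all overTST libraries (0.27, SE 0.056, adjusted p = 0.000533). COX5B had 113, 105, 108 and 102 CPM in shTST, likewise below overTST (0.18, SE 0.051, adjusted p = 0.00687), and COX5A had 110.3, 107, 108 and 104 (0.17, SE 0.051, adjusted p = 0.0108). COX8A had 71.2, 72.1, 77.4 and 76.1 CPM in shTST and 78.8, 91.9, 87.1 and 89.6 in overTST (0.23, SE 0.065, adjusted p = 0.0089). COX4I1 (0.13, SE 0.05, adjusted p = 0.0478), COX7A2 (0.17, SE 0.06, adjusted p = 0.0315) and COX7B (0.23, SE 0.072, adjusted p = 0.0182) were also called, but without shTST replicate 3, shTST replicate 4 or overTST replicate 3 all of them were lost, leaving 6 subunits called. COX4I1 lost its call without any 1 of 8 libraries and COX7A2 without any 1 of 7.

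Of the assembly factors, 7 were higher and 1 lower in overTST than in shTST (34.8%), close to the 33% of all genes called, with a median of 0.11. COA4 (0.34, SE 0.051, adjusted p = 1.89e-05), COX20 (0.31, SE 0.059, adjusted p = 0.000275), COA6 (0.30, SE 0.069, adjusted p = 0.00149), COX17, COA1 and TACO1 were higher here as they were against WT. SCO2, the copper chaperone, was called in this comparison and in neither comparison with WT. It had 27.2, 30.5, 32.4 and 31.1 CPM in WT, 25.2, 26.6, 28.9 and 29.3 in shTST and 29.9, 35.3, 33.7 and 35.7 in overTST. Its shTST libraries lay below all overTST libraries, with WT across both (0.29, SE 0.069, adjusted p = 0.00232). This call was lost with the corrections on exonic length (0.14, adjusted p = 0.0898), principal transcript length (0.13, 0.115) and GC content (0.14, 0.0613) described below. COA5, higher in both lines against WT, did not differ past the threshold between them (0.002, SE 0.071, adjusted p = 0.987). LRPPRC was lower (−0.18, SE 0.049, adjusted p = 0.00522), a call also lost with each of these corrections. The call of COX17 was lost without shTST replicate 2, shTST replicate 4 or overTST replicate 3 (adjusted p of 0.0616, 0.0767 and 0.104), and that of COA1 without shTST replicate 3 (0.0670). These values share the WT libraries and each line's own libraries with the comparisons above, so they are not separate evidence.

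The mitochondrially encoded subunits, which form the core that the nuclear subunits surround, had negative fold changes in shTST, 1 of 3 called, and positive ones in overTST, all 3 called. Of all genes, 16.1% were called in shTST and 33.9% in overTST. MT-CO1 had 15230.3, 20454, 16138 and 27446 CPM in WT, 18149.6, 15864, 16133 and 14698 in shTST and 26510.4, 27429, 25159 and 27000.4 in overTST. The WT libraries were spread over both other groups, with WT replicate 4 at the overTST level. The log2 fold change was −0.29 (SE 0.12, adjusted p = 0.11) in shTST, 0.42 (SE 0.12, adjusted p = 0.00687) in overTST and 0.71 (SE 0.11, adjusted p = 4.26e-05) between the lines, where the groups were apart. MT-CO2 was −0.39, 0.35 and 0.74 in these comparisons, and MT-CO3 −0.26, 0.36 and 0.62. In shTST MT-CO2 alone was called (adjusted p = 0.0423), and not without WT replicate 4 (−0.18, adjusted p = 0.219) or without shTST replicate 2, 3 or 4, while MT-CO1 and MT-CO3 were called without WT replicate 1 or 3. In overTST the calls of all 3 were lost with DESeq2, limma-voom and both length corrections described below, and MT-CO2 was not called without WT replicate 1, WT replicate 3 or overTST replicate 2, nor MT-CO3 without WT replicate 1. In the shTST libraries the nuclear subunits had positive fold changes and the 3 mitochondrial ones negative fold changes, whereas in overTST both were positive.

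A wider list of 18 further complex IV genes gave 15 that could be tested. In overTST 4 were higher and 1 lower (33.3%), close to the 33.9% of all genes called. The higher ones were CCS, the copper chaperone of superoxide dismutase (0.40, SE 0.056, adjusted p = 8.98e-06), HIGD2A, which acts in late assembly (0.32, SE 0.052, adjusted p = 4.84e-05), COA8 (0.32, SE 0.083, adjusted p = 0.00406) and CHCHD7 (0.29, SE 0.077, adjusted p = 0.00473). SLC31A1, the copper importer of the plasma membrane, was lower, with 178, 169, 164 and 174 CPM in WT, 159, 154, 149 and 157 in shTST and 143, 139, 141 and 128 in overTST. Its 3 groups did not overlap, with WT highest and overTST lowest (−0.32, SE 0.05, adjusted p = 3.56e-05 in overTST). In shTST CCS (0.16, SE 0.051, adjusted p = 0.033) and SLC31A1 (−0.15, SE 0.042, adjusted p = 0.0205) were called, 1 in each direction (13.3% beside 16.1% of all genes), and CCS lost its call without any 1 of 7 libraries and SLC31A1 without any 1 of 5. Between the lines HIGD2A (0.40), CCS (0.24), COA8 (0.29) and OXA1L (0.12), the insertase of the inner membrane, were higher in overTST and SLC31A1 (−0.17) lower. These were 33.3% of the 15 tested, beside 33% of all genes called. OXA1L lost its call without any 1 of 4 libraries. HCCS, FDX2, FDXR and SLC25A3, which serve heme and copper supply, did not pass in any comparison, nor did CMC2, HIGD1A, SMIM20, TIMM21 and TMEM177, although FDX2 was called in overTST without WT replicate 3 (0.40, adjusted p = 0.0353) and HCCS without overTST replicate 4 (0.19, adjusted p = 0.0402).

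Transcript length moved with these results. In each library the median shift from the WT mean of genes with up to 1 kb of exons, minus that of genes over 8 kb, was −0.077 to 0.11 in WT, 0.034 to 0.12 in shTST and 0.24 to 0.40 in overTST. Within WT, replicate 2 was the lowest and replicate 3 the highest in this shift, as they were for the median subunit, and within overTST replicate 1 was the lowest in both. By the length of the principal transcript, a measure added after the data were seen, all genes of up to 1 kb had a median of 0.24 in overTST against WT. Of these 1481 genes, 31.3% were called higher. The 6 subunits of this class (COX4I1, COX5B, COX6A1, COX6B1, COX7A2 and COX8A) had a median of 0.28. From 1 to 2 kb the median was 0.13 for all 2945 genes, 29.3% of them called higher, and 0.40 for COX5A, COX6C and COX7C. From 2 to 4 kb it was −0.0018 for all 5446 genes, 12.3% of them called higher, and 0.34 for COX7B and NDUFA4. Genes over 8 kb had a median of −0.20. By exonic length, genes of up to 1 kb had a median of 0.21 and the 2 subunits there 0.30. From 1 to 2 kb these were 0.18 and 0.28 (5 subunits), and from 2 to 4 kb 0.072 and 0.40 (3 subunits). From 4 to 8 kb they were −0.052 and, for COX4I1, 0.26. Why length and level moved together was not tested.

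With a trend on exonic length removed from each library, 7 of 11 subunits were called higher in overTST against WT, with a median of 0.18, beside 14.2% of all genes higher and 14.3% lower. With the length of the principal transcript, an alternative added after the data were seen, 4 were called, with a median of 0.13, beside 12.3% of all genes higher and 12.2% lower. COX7B kept a difference of 0.41 and 0.45 under these corrections, COX7C 0.26 and 0.28, COX6C 0.34 and 0.23, and COX6B1 0.19 and 0.15, all still called. COX4I1 depended on the length used, since its exons span 4792 bases and its principal transcript 873. It was 0.29 with the first and 0.063 (adjusted p = 0.332) with the second. COX7A2 and NDUFA4 were called only with exonic length, and COX5A, COX5B, COX6A1 and COX8A with neither. COX8A, the shortest at 507 bases, went to 0.045 and −0.00059.

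The assembly factors had 8 higher and 0 lower calls with exonic length and 6 and 0 with the principal transcript. COA4 (0.25 and 0.18), COA6 (0.20 and 0.18), COA1 (0.39 and 0.19) and COX20 (0.31 and 0.26) were called under both. PET100 was called only with exonic length. COA3, COA5, COX16, COX17, TACO1 and LRPPRC, all called without correction, were called with neither. COX18 (0.26 and 0.35) and CMC1 (0.30 and 0.31), with transcripts over 6 kb, were called under both corrections and not in the uncorrected comparison reported above. COX11, also not called there, was called with exonic length (0.16) and not with the principal transcript. Between the lines 2 subunits were called under either correction, with medians of 0.083 and 0.037. That is 18.2% of the subunits, beside 14.9% of all genes higher and 13% lower with exonic length and 13.7% and 11.6% with the principal transcript. In shTST the corrections left 2 subunits (18.2%) and 3 assembly factors (13%) called higher, beside 8.05% of all genes higher and 9.88% lower with exonic length and 8.15% and 10.2% with the principal transcript, and with the second SCO2 was also called lower (−0.18). CYCS (0.21 and 0.29) and COX7A2L (0.20 and 0.16), whose transcripts are over 3 kb, were called in overTST under both. A correction on GC content, also added later, left all 11 subunits called in overTST against WT, beside 17.2% of all genes higher and 17.9% lower. Between the lines it called 9 subunits, 7 of them called without it, beside 14.3% of all genes higher and 14.2% lower. There COX4I1 (0.066), COX8A (0.14), SCO2, LRPPRC and TACO1 (0.069) lost their calls, while COX6C (0.23) and NDUFA4 (0.20) gained them. Of the assembly factors 9 were called with it, all higher, and 5 of these were called without it.

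The annotation limits some counts. The exons of COX20 share 72% of their bases with HNRNPU on the other strand, those of PET117 62.4% with KAT14 on the same strand, and those of COA3 42.5% with WNK4 on the other strand. SCO2 shares 24.9% with TYMP and COX19 21.4% with ADAP1, both on the same strand, and CMC1 33.4% with AZI2 on the other strand. SCO2 also shares 36.7% with an unnamed gene on the other strand. Among the tested subunits, COX8A shares 34.5% and COX6A1 13% with unnamed genes on the same strand, and the one at COX8A had 0 reads in every library. COX16 shares 36% with the readthrough gene SYNJ2BP-COX16 and COX17 17.6% with POPDC2. COX11 shares 14% with TOM1L1, and HIGD2A of the wider list 34% with NOP16, both on the other strand. Whether strand was used in counting is not given in the sources used here. Reads of these pairs may thus have been divided or dropped, and the values of these genes are uncertain to that extent. Processed pseudogenes are common for these genes, with 54 named copies of 10 subunits and 42 of CYCS. The copies of COX6C, 17 of them, had 0 to 3 reads per library in all beside 634 to 886 for the gene, and those of CYCS 30 to 88 beside 4649 to 8632.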

How the data were processed

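The authors deposited, for each of the 12 libraries, whole-number read counts on 57500 Ensembl genes, which were not normalized. The submitters' processing notes name Trimmomatic 0.36, STAR 2.5.2b, featureCounts of Subread 1.5.2 and GRCh38, and the use of strand is not given in the sources used here. Groups and replicate numbers came from the sample labels. Members were matched by gene name to Ensembl identifiers, and SCO2 by its GENCODE 29 identifier. The members and gene lists were chosen with earlier results of these data known.

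Each line was compared with WT on its own 8 libraries, and overTST with shTST on all 12, with edgeR 4.0.16 in R 4.3.3 (filterByExpr, TMM, quasi-likelihood test, Benjamini-Hochberg adjustment over all genes tested, threshold 0.05). Standard errors (SE) were derived from the fold change and its F statistic. Values in every library are given for members called without overlap between groups, up to 6 by smallest p per role and comparison, and others were added after their values were seen. Alternatives were DESeq2 1.42.0, limma-voom (limma 3.58.1), RLE and upper-quartile scaling, other filters, removal of mitochondrially encoded genes, all libraries or only the 2 groups in the fit, the replicate number as a block, lowess trends (span 0.3) on length and GC content, and leaving out each library. The edgeR, DESeq2 and limma-voom fits, the replicate block and the exonic length correction were tested on simulated counts of WT against overTST. The fit of all 12 libraries and the other alternatives were not tested in this way. Replicates of a group differed by 3.78 to 38.9 chi-square units per gene, so none was a copy of another. Depth sets the counting error. Motifs were searched as plain letters in RefSeq promoters.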

Additional observations from a re-analysis of the deposited data

Results flagged for a closer look

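In 5 of 108 groups of 4 samples, 1 sample was far from the other 3 by a gap test that chance passes in about 1 of 20 groups. COX7C was at 95.8 CPM in overTST replicate 1, where the other overTST libraries had 113 to 114. That library was also the lowest of its group in the summed subunit level and in the shift of short against long genes, and the part of length was not tested. COX4I1 was at 299 CPM in WT replicate 2, beside 344 to 353, and PET117 at 16.4 CPM in the same library, beside 18.1 to 18.4. CMC1 was at 13.5 CPM in shTST replicate 3, beside 15.4 to 15.5. COA3 was at 98.4 CPM in shTST replicate 1, beside 107 to 108.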

How the results depend on the processing

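Leaving out 1 library at a time, the subunits called ranged from 1 to 7 in shTST against WT, from 10 to 11 in overTST against WT and from 6 to 9 between the lines. The assembly factors called ranged from 1 to 3, 10 to 12 and 7 to 9. Over all genes tested, shTST against WT, the count ranged from 1513 (without shTST replicate 1) to 2336. In overTST against WT it ranged from 3979 of 14676 (without overTST replicate 3) to 5263 of 14664 (without overTST replicate 1). Between the lines it ranged from 3986 of 15073 (without overTST replicate 2) to 5265 of 15075 (without overTST replicate 1). DESeq2, limma-voom, RLE and upper-quartile scaling, the filters, removal of mitochondrially encoded genes and the choice of libraries in the fit left each count of subunits and assembly factors within 1.5 times its value.

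Same-numbered samples had weak correlations of −0.053 to 0.080 in their deviations from the group means, which do not settle whether the numbers pair the samples. Between WT and shTST, replicates 1, 2 and 3 had 0.032, 0.044 and 0.080 and replicate 4 had −0.053. Samples with different numbers in these groups had −0.062 to 0.031. With the replicate block 5 subunits were called in shTST against WT in place of 2, and 4 with the length correction and the block together. The added subunits were COX4I1, COX7A2 and COX7C. Over all 14584 genes tested, 2980 were called with the block and 3125 with both, in place of 2346. The block moved no other count of calls by over 1.5 times.

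The length correction gave 7 subunits in overTST against WT, with or without the block, and 2 between the lines, with or without it. By the principal transcript, added after the data were seen, these were 4 and 2, and the assembly factors 6 and 5. Under that correction COX8A, overTST against WT, turned to −0.00059 and COX4I1, overTST against shTST, to −0.027. HIGD1A, overTST against WT, was −0.13 with the length correction and the replicate block. Depth limits the 4 isoforms near 0 reads.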
